A study of Mus musculus with 2 samples.

Results

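The cells described are CD8 T cells of lymph nodes that carried RNA of the chemokine gene Ccl5. They were chosen by measured values. A cell of either lymph node entered if the deposited natural log value was above 0 for Cd3e (a chain of the CD3 complex) and Cd8b1 (the beta chain of CD8), was 1.5 or more for Ccl5, and was 0 for Cd4, Cd79a and Foxp3, the last 3 being genes of CD4 T cells, B cells and regulatory T cells. The rule found 394 cells among 7937 node cells (4.96%) and 12458 cells in all. They made up 21.5% of the 1833 node cells that passed the same gate without its Ccl5 term. Another 1097 of these held no Ccl5 at all and are called Ccl5-negative. The remaining 342 held Ccl5 under the cut, 289 of them as 1 unique molecular identifier (UMI, the tag that marks 1 captured RNA molecule).

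Naive CD8 T cells circulate through lymph nodes guided by the chemokine receptor CCR7, and are kept quiescent by factors such as LEF1 and TCF1 (Tcf7). Memory CD8 T cells keep Ccl5 and other effector RNAs ready, depend on interleukins read by the shared receptor chain Il2rb, and use the T-box factors T-bet (Tbx21) and Eomes. In laboratory mice, cells with such a memory programme also arise without known contact with antigen, and these virtual memory cells are known for high Il2rb and low alpha-4 integrin (Itga4).

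The study profiled CD45-positive cells by 5′ single-cell RNA sequencing of 4 C57Bl6 mice that bore subcutaneous flank tumours of MC38-OVAdim, a mouse colon carcinoma line that carries ovalbumin. Of these mice, 2 were Havcr2 fl/fl controls (WT1 and WT2) and 2 are labelled as knockouts (KO1 and KO2) of Havcr2, the gene of the checkpoint receptor TIM-3. No source used here gives the driver of the deletion, the age of the mice or the day of collection. Each mouse gave its tumour, its draining node (dLN) and a non-draining node (ndLN). Cells had been sorted with an enrichment for dendritic cells (DC), so shares of node cells are shares of the sort. Droplet channel 1 held WT1 and KO1, and channel 2 held WT2 and KO2.

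Havcr2 itself checked the labels poorly in these cells, because it was nearly silent. WT1 had 3 Havcr2 UMIs in 96 Ccl5-positive cells and WT2 had 2 in 92, against 0 in 86 cells of KO1 and 0 in 120 cells of KO2, which allow shares of cells with a UMI of up to 3.49% and 2.50%. Over all tumour cells the level was 0.737 and 0.839 UMIs per 10000 in WT1 and WT2 and 0.259 and 0.150 in KO1 and KO2, so both KO samples lay below both WT samples. In tumour CD8 T cells of the same Ccl5 gate Havcr2 was at 1.94 in WT1, 0 in WT2 (4 cells), 1.36 in KO1 and 0.620 UMIs per 10000 in KO2. KO tumour CD8 T cells thus still carried Havcr2 RNA, and WT and KO overlapped there.

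Several properties of the libraries touch what follows. Ccl5-positive cells had a median of 6154.5 UMIs, Ccl5-negative cells 5082 and node B cells 3116. The cut of 1.5 equals 3.48 UMIs per 10000, so a shallow cell passed it with 1 molecule: 24 of the 394 cells held 1 Ccl5 UMI, 47 held 2, 32 held 3 and 291 held 4 or more. The 5 values just inside the cut ran from 1.50099 to 1.50521 and the 5 just outside from 1.49305 to 1.49937. Ccl5 detection in node B cells differed between the channels, and whether it came from free RNA or doublets was not tested. A Ccl5 UMI was found in 36.4% of 838 node B cells of channel 1 and in 8.77% of 1585 of channel 2, and mature node DCs (Fscn1 and Ccr7 present) held 277 Ccl5 UMIs per 10000 against 40.8 in the Ccl5-positive T cells. Of the Ccl5-positive cells, 93 carried 3 or more UMIs of 12 DC marker genes, and no source used here says whether doublets were removed. The channels shared 65 barcodes, and 5 Ccl5-positive cells had such a barcode.

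The label of these cells as memory-like rests on genes outside the gate. Cd8b1 and Ccl5 were part of the rule and check nothing. Nkg7, a granule membrane protein of cytotoxic cells, was found in 94.9% of Ccl5-positive cells, but also in 84.6% of Ccl5-negative cells and in 0.495% of B cells. What differed was its level, 8.04 to 12.1 UMIs per 10000 over the 8 node samples in Ccl5-positive cells and 5.07 to 6.99 in Ccl5-negative cells, without overlap. Markers of other cells were summed in the same way. The 12 DC markers summed to 2.30 to 15.8 UMIs per 10000 in the 8 samples of Ccl5-positive cells (median 5.54) and to 2.31 to 13.7 in Ccl5-negative cells (median 3.91). The 8 natural killer (NK) cell markers, Eomes among them, summed to 1.37 to 2.97 and 0.628 to 1.52. The 4 B cell markers on file summed to at most 0.417 and 0.374, with Ebf1 among those at 0 in Ccl5-positive cells. The 4 further CD4 and regulatory T cell markers summed to 0.118 to 1.28 and 0.477 to 1.20. Both gamma-delta or innate-like markers on file were also low, at 0.0198 to 0.381 in Ccl5-positive cells and at most 0.0173 in Ccl5-negative cells. Of the monocyte and macrophage markers all 8 had a UMI, with sums of 0.345 to 7.32 and 0.489 to 2.96. Beyond fits without cells of 3 or more DC marker UMIs, the part of these markers in the differences below was not tested.

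The share of gated CD8 T cells that were Ccl5-positive lay between 15.2% and 27.0% in the 8 node samples. In dLN it was 16.5% in WT1 (46 of 279 cells), 15.2% in WT2 (46 of 303), 21.9% in KO1 (42 of 192) and 24.8% in KO2 (52 of 210). In ndLN it was 25.5% in WT1 (50 of 196), 19.8% in WT2 (46 of 232), 27.0% in KO1 (44 of 163) and 26.4% in KO2 (68 of 258). The dLN was the lower node in 4 of 4 mice, and in either node both KO mice lay above both WT mice. The mean difference between dLN and ndLN was -5.10 percentage points (19.6% against 24.7%; exact permutation test over 4 paired mice, two-sided, p = 0.13). It was 5.75 points higher in KO than in WT (25.0% against 19.3%; exact permutation test of 2 against 2 mice, two-sided, p = 0.33). Each p is the smallest that its design allows, so neither can pass 0.05. Of all node cells the Ccl5-positive cells were 4.04%, 4.36%, 4.13% and 3.57% in dLN and 6.64%, 4.79%, 7.67% and 6.95% in ndLN, in the order WT1, WT2, KO1 and KO2, so WT and KO overlapped in dLN by this measure.

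**Figure D1:**
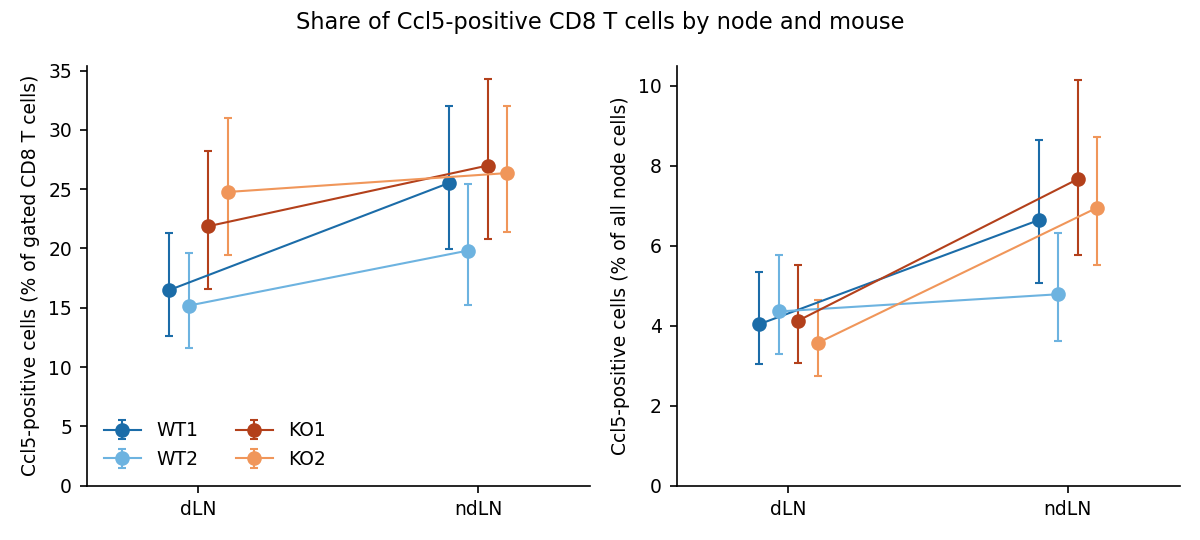
Share of Ccl5-positive cells among gated CD8 T cells (left, %) and among all node cells (right, %) in dLN and ndLN; each line is a mouse and bars are 95% Wilson intervals, which cover counting error only. The dLN is lower than the ndLN in every mouse, from 15.2% to 24.8% against 19.8% to 27.0% of gated CD8 T cells. In the left panel the intervals of the nodes overlap in each mouse, and in the right panel those of KO1 and KO2 do not.

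The node difference changed sign when depth was made equal. After every cell had been thinned to 1500 UMIs, at which 1 Ccl5 UMI passes the cut and 103 to 180 gated cells remained per sample, the shares were 19.4%, 16.3%, 28.9% and 18.3% in dLN of WT1, WT2, KO1 and KO2 and 22.3%, 16.9%, 24.3% and 18.2% in ndLN. The mean difference then turned to 0.317 points higher in dLN (exact permutation p = 0.88). KO exceeded WT by 3.68 points (exact permutation p = 0.67), but KO2 lay below WT1 in both nodes. With 4 or more Ccl5 UMIs required, the share was 9.32%, 13.5%, 12.5% and 22.9% in dLN and 17.3%, 16.4%, 19.0% and 22.1% in ndLN, in the same order of mice. KO2 alone was then not lower in its dLN. Without cells of 3 or more DC marker UMIs the node difference was -2.61 points, and with any Ccl5 value above 0 it was -2.24 (exact permutation p = 0.38 for both). KO exceeded WT by 4.74 and 6.22 points in these settings (exact permutation p = 0.33 and 0.67). Cells of 3 or more DC marker UMIs numbered 11, 10, 9 and 7 among the Ccl5-positive cells of dLN and 17, 7, 21 and 11 in ndLN, in the same order of mice.

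Against Ccl5-negative CD8 T cells of the same nodes, the Ccl5-positive cells carried more RNA of many memory, cytotoxic and S100 and annexin genes and less RNA of part of the naive T cell genes. Values per mouse were the mean of dLN and ndLN, in units of mean log2(1 + UMIs per 10000), on which changes of weakly expressed genes look smaller than they are. The 4 mice were compared as pairs with limma. Of 6698 genes tested, 209 were higher (3.12%) and 126 lower (1.88%) at an adjusted p under 0.05, with a median difference of 0.01 over all genes. The 6 genes of the gate were left out. A gene was tested if 5% of the cells of both classes pooled held it, so Gzmm, Xcl1, Ccl4 and Tbx21, found in 1.00% to 2.64% of Ccl5-negative cells, entered through the Ccl5-positive cells. Counts and medians over the tested genes of a list can therefore lean towards higher values. With a pseudocount of 0.1 on the mean level the split was 134 higher and 128 lower (51.1% higher in place of 62.4%). Without KO2 the count was 98 higher and 43 lower, and without WT2 137 and 78. With 4 or more Ccl5 UMIs required it rose to 503 and 186.

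Most receptor and transcription factor genes of memory cells were higher. Of 15 genes on the list, 13 were tested, and 10 were higher and 0 lower, with a median of 0.37. This list, like the others, was chosen with earlier results of these data known, so the count is no independent support for the label. Il2rb (GRCm38, chr15:78479256-78495271, minus strand), the beta chain shared by the interleukin-2 and interleukin-15 receptors, stood at 2.00, 2.31, 2.35 and 3.30 UMIs per 10000 in Ccl5-positive cells of WT1, WT2, KO1 and KO2 and at 0.703, 0.563, 0.736 and 0.819 in Ccl5-negative cells. The groups did not overlap, and the difference was 0.88 ± 0.06 log2 (limma SE, moderated over genes, n = 4 mice, adjusted p = 4.9e-14). It was detected in 66.0% of Ccl5-positive cells, 27.8% of Ccl5-negative cells and 0.537% of B cells.

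Ly6c2 (chr15:75108158-75111970, minus strand), a surface protein of memory and effector CD8 T cells, had the largest difference of all genes the rule named. It stood at 9.87, 14.8, 9.69 and 14.0 UMIs per 10000 in Ccl5-positive cells and at 4.56, 5.12, 3.92 and 5.47 in Ccl5-negative cells, a difference of 1.56 ± 0.09 log2 (adjusted p = 3.6e-16). All 4 mice moved the same way, and both mice of channel 2 were higher than those of channel 1 in both classes. Ly6c2 has a near-identical neighbour, Ly6c1, so its count can hold reads of either.

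Among factors and homing receptors of the list, Tbx21 (chr11:97098071-97115331, minus strand) was nearly absent from Ccl5-negative cells. It was at 0.513, 0.707, 0.552 and 0.552 UMIs per 10000 in Ccl5-positive cells and at 0.0371, 0.0326, 0.0270 and 0.0376 in Ccl5-negative cells, where 2.28% of cells held a UMI, close to the 1.98% of B cells. The difference was 0.39 ± 0.04 log2 (adjusted p = 1.8e-10). Its relative Eomes (chr9:118478212-118486132, plus strand) stood at 0.546, 0.914, 1.02 and 0.872 against 0.182, 0.355, 0.143 and 0.384 UMIs per 10000 (0.37 ± 0.04 log2, adjusted p = 3.2e-08). Both T-box genes were thus present, and neither overlapped between the classes.

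Cxcr3 (chrX:101731535-101734269, minus strand), a chemokine receptor that guides T cells to inflamed tissue, stood at 1.06, 1.47, 0.943 and 1.38 against 0.336, 0.166, 0.116 and 0.286 UMIs per 10000 (0.57 ± 0.05 log2, adjusted p = 1.3e-11). Cd44, the adhesion receptor by which memory T cells are usually gated, differed less, by 0.26 ± 0.04 log2 (adjusted p = 1.0e-05), and was found in 25.9% of Ccl5-positive and 8.02% of Ccl5-negative cells. The integrin chain Itgb1 (0.71), the interferon-induced transmembrane family member Ifitm10 (0.54) and the interleukin-18 receptor chains Il18r1 (0.28) and Il18rap (0.19) were also higher. Ly6a (0.05), Id2 (0.12) and Cd27 (0.02) did not pass.

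**Figure D2:**
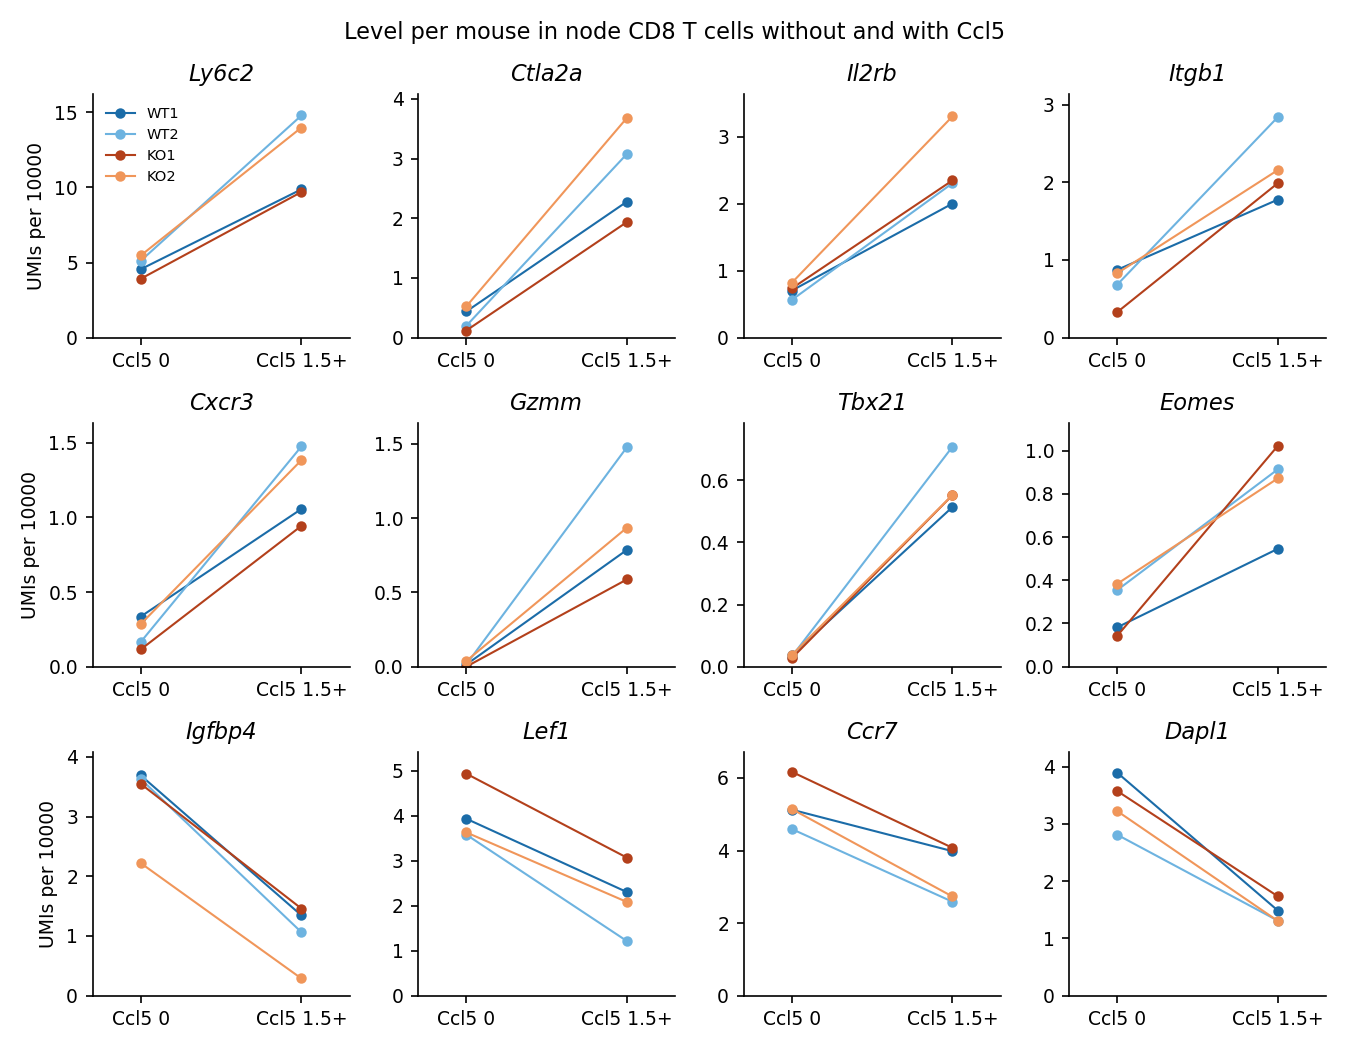
Level of 12 genes (UMIs per 10000, mean of both nodes, linear axes from 0) in Ccl5-negative (left) and Ccl5-positive (right) node CD8 T cells; each line is a mouse. The lines of Ly6c2, Ctla2a, Il2rb, Itgb1, Cxcr3, Gzmm, Tbx21 and Eomes rise in all 4 mice, and those of Igfbp4, Lef1, Ccr7 and Dapl1 fall in all 4.

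Cytotoxic genes were higher in part. Of 12 on the list only 6 reached the detection limit of 5% of cells, and 4 of those were higher. Gzmm (chr10:79689020-79695261, plus strand), a granzyme of innate-like lymphocytes, stood at 0.786, 1.48, 0.587 and 0.936 UMIs per 10000 in Ccl5-positive cells and at 0.0143, 0.0148, 0 and 0.0386 in Ccl5-negative cells (0.49 ± 0.04 log2, adjusted p = 1.5e-10). It was found in 23.9% of Ccl5-positive cells, 1.00% of Ccl5-negative cells and 0.0413% of B cells. The granule genes Ctsw (0.50) and Cst7 (0.48) and Nkg7 (0.79) were higher in 4 of 4 mice, while Prf1, perforin, was at 0.11 and Srgn at 0.16 and did not pass. Ctla2a (chr13:60934155-60936625, minus strand), a cysteine protease inhibitor first found in activated T cells, was higher by 1.09 ± 0.06 log2 (adjusted p = 3.6e-16), at 2.28, 3.08, 1.94 and 3.68 against 0.439, 0.199, 0.120 and 0.524 UMIs per 10000. Its close copy Ctla2b may share reads with it.

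The granzymes of armed effector cells were rare. Gzmb was found in 5.33% of Ccl5-positive cells and ranged over the 8 node samples from 0 to 2.86 UMIs per 10000 (median 0.203), with the highest value in ndLN of KO2. Gzmk was found in 5.84% (0 to 0.599, median 0.335) and Gzma in 5.08% (0 to 4.19, median 1.42). In Ccl5-negative cells they were found in 0.820%, 0.729% and 0.912%, and all 3 fell below the detection limit, so no test was made. Klrg1, a receptor of terminal effector cells, had a UMI in 1.27% and Pdcd1, the gene of PD-1, in 2.28% of Ccl5-positive cells. Klrd1, the CD94 chain, was present in 58.9% and 55.3% of Ccl5-positive and Ccl5-negative cells and differed by 0.08 ± 0.06 log2 (adjusted p = 0.55). It was the only 1 of 11 killer lectin-like receptor genes on the list to be tested.

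Among secreted signals, the chemokine genes Xcl1 and Ccl4 were higher. Xcl1 (lymphotactin, which attracts cross-presenting DCs) was at 0.611, 0.515, 0.604 and 1.14 against 0.0591, 0.0286, 0.00826 and 0.132 UMIs per 10000 (0.42 ± 0.04 log2, adjusted p = 5.2e-10). Ccl4 was at 0.571, 1.01, 0.689 and 0.930 against 0.0519, 0.230, 0.473 and 0.0911 (0.35 ± 0.04 log2, adjusted p = 3.9e-08), with the 0.473 of KO1 coming from its dLN. Of the chemokine and receptor list, 3 of 8 tested genes were higher and 2 lower. The lower ones were Ccr7 and Ccr9, the receptor for a gut and thymus chemokine (-0.22).

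Genes of calcium-binding and membrane-associated proteins were almost all higher. Of 10 tested genes of S100 proteins, annexins, galectins and related genes, 9 were higher and 0 lower, with a median of 0.35. S100a6 (chr3:90612882-90624181, plus strand), a calcium-binding protein, stood at 3.03, 7.81, 5.63 and 4.01 against 1.18, 0.391, 1.22 and 0.697 UMIs per 10000 (0.89 ± 0.07 log2, adjusted p = 1.2e-11). Lgals1 (galectin-1), Crip1 and Vim (vimentin) were higher by 0.77, 0.62 and 0.53 log2. WT2 had the highest level of S100a6, Lgals1, Crip1 and Vim among Ccl5-positive cells. Outside the list, the integrin chain Itgb1 and the focal adhesion protein Zyx (0.65) and the giant scaffold Ahnak (0.60) were higher too.

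The integrins split. Itgal and Itgb2, which pair as LFA-1, were higher by 0.26 and 0.38, and Itgb1 by 0.71. Itgal lost its call under 3 of 15 other settings and Itgb2 under 1, with thinning to 1500 UMIs among them for both. Itga4, which pairs with Itgb1 or Itgb7, was lower by 0.20 ± 0.04 log2 (adjusted p = 6.6e-04), at 0.446, 0.315, 0.264 and 0.321 against 0.597, 0.599, 0.882 and 0.625 UMIs per 10000, and Itgb7 by 0.22. Itga4 was found in 14.0% of Ccl5-positive and 24.5% of Ccl5-negative cells. Itgb7 was the least stable of these calls and was lost under 9 of 15 other settings. Itgae, the CD103 chain of tissue-resident cells, was lower by 0.16 but higher in 1 of 4 mice, and lost its call under 8 of 15.

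Naive and quiescence genes were lower in part. All 16 on the list were tested, 8 were lower and 1 was higher, with a median of -0.17. Igfbp4 (chr11:99041244-99054392, plus strand), a growth factor binding protein typical of naive T cells, stood at 1.35, 1.06, 1.46 and 0.288 UMIs per 10000 in Ccl5-positive cells and at 3.69, 3.63, 3.55 and 2.22 in Ccl5-negative cells (-0.90 ± 0.05 log2, adjusted p = 9.0e-16). Dapl1 (chr2:59484653-59505020, plus strand), a gene of quiescent T cells, was at 1.49, 1.31, 1.74 and 1.30 against 3.89, 2.81, 3.58 and 3.22 (-0.75 ± 0.06 log2, adjusted p = 1.2e-12). Both genes separated the classes in every mouse. Lef1 (-0.66), Actn1 (-0.33), Tcf7 (-0.28) and Bach2 (-0.21) followed, and Tcf7 lost its call under 7 of 15 other settings. Ccr7 (chr11:99144196-99155077, minus strand) stood at 3.98, 2.59, 4.08 and 2.73 against 5.13, 4.59, 6.17 and 5.14 UMIs per 10000 (-0.62 ± 0.07 log2, adjusted p = 1.7e-08).

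Not every gene of the naive list followed Ccr7. The trafficking regulators Klf2 (0.00) and S1pr1 (-0.07) did not pass. Il7r, the interleukin-7 receptor of long-lived T cells, was the 1 gene of the list that was higher (0.27 ± 0.07 log2, adjusted p = 0.011, 4 of 4 mice), a call lost under 7 of 15 other settings.

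**Figure D3:**
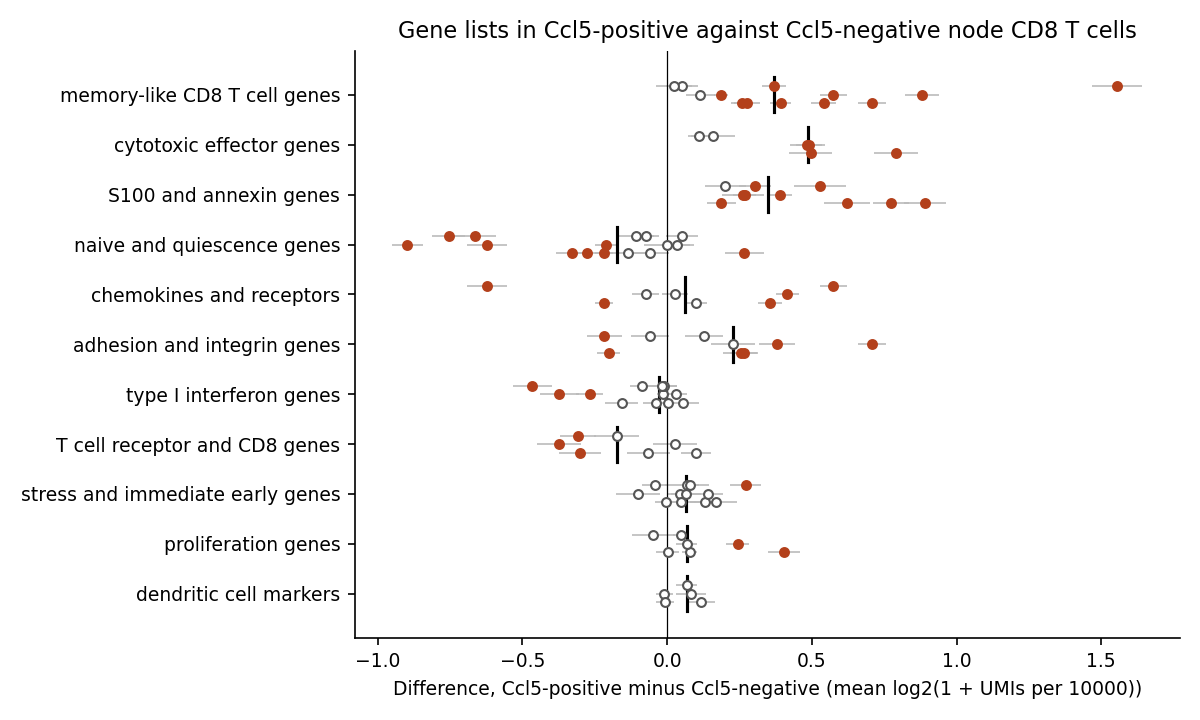
Difference between Ccl5-positive and Ccl5-negative node CD8 T cells (mean log2(1 + UMIs per 10000)) for the tested genes of 11 lists. Bars are limma SE over 4 mice, moderated with the spread of other genes. Filled points passed an adjusted p of 0.05 and black ticks are list medians. Memory, cytotoxic and S100 and annexin lists lie right of 0, the first and last with medians of 0.37 and 0.35, and the naive list lies mostly left with a median of -0.17.

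Other groups moved in few members. Of 12 interferon genes tested, 3 were lower and 0 higher, among them Ifi27l2a (-0.47 ± 0.07 log2, adjusted p = 7.1e-06) and the GTPase Igtp (-0.27), while Ifit1, Ifit3 and Isg15 lay between -0.01 and 0.00. Of 7 genes of the T cell receptor complex and CD8, Cd3g (-0.37), Cd247 (-0.31) and Cd8a (-0.30) were lower. Of 15 other settings Cd8a lost its call under 6, each node alone among them, and was nearest to 0 (-0.13, adjusted p = 0.34) with any Ccl5 value above 0 as the gate, Cd247 under 3 and Cd3g under 1. Of 7 proliferation genes, the chromatin protein Hmgb2 (0.40) and the tubulin regulator Stmn1 (0.24) were higher, while Top2a (0.08) and Pcna (0.00) did not pass. Of 12 stress and immediate early genes 1, Nr4a1, was higher (0.27). The receptor chain Ifngr1 was higher by 0.62 ± 0.06 log2 and the histone variant H2afz by 0.66. Among the genes most reduced outside the lists were Rgcc (-0.68), a cell cycle regulator, the phosphodiesterase Pde4b (-0.56) and the cholesterol carrier Npc2 (-0.47). No tested DC marker (0 of 5) or monocyte marker (0 of 2) passed. Without the cells of 3 or more DC marker UMIs, 168 genes were higher and 106 lower, and 239 of the 335 calls remained.

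The T-box core motif GGTGTGA was searched in promoters because both T-box genes were higher in these cells. The 250 bases before the RefSeq start of each gene (GRCm38.p6, the first start listed) were read on both strands. The motif was present in 894 of 27025 promoters (3.31%), in 11 of 162 genes that were higher in Ccl5-positive cells and had a promoter on file (6.79%) and in 3 of 100 that were lower (3%). The 27025 promoters include those of genes not tested in these cells, and no share over the tested genes was taken. The 3.31% is therefore not a like background for the 6.79%. Of the 54 named genes that passed, 40 had a promoter and 4 held the motif. Of the 4, 3 were higher (Cd48, Nkg7 and Xcl1) and Itga4 was lower. Cd48 lost its call under 7 of 15 other settings, each node alone among them. Their sites, shown with flanking bases 5′ to 3′ and the motif in capitals, are the following.
Nkg7, chr7:43437114-43437137, motif starting 13 bases before the RefSeq start: ggggtagggaaGGTGTGAgaagaa
Xcl1, chr1:164935693-164935721, motif starting 188 bases before the start: ggtctcatgttGGTGTGAacaaggcaaag
Cd48, chr1:171681908-171681936, motif starting 73 bases before the start: tcattccatgtGGTGTGAtggtagtggtc
Itga4, chr2:79255250-79255278, motif starting 165 bases before the start: atgtctgccagGGTGTGAgtccatgcaac
All 4 lay on the strand of their gene, and Xcl1 is on the minus strand of the chromosome. The Nkg7 site lies inside the gene as GENCODE vM21 draws it (chr7:43437073-43438249). A match of letters is a description and not a binding site.

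The Ccl5-positive cells were not alike among themselves, and their other genes varied with the number of Ccl5 molecules. In the 291 cells with 4 or more Ccl5 UMIs, Il2rb was detected in 77.7%, Ly6c2 in 89.3%, Ctla2a in 68.7%, Cxcr3 in 50.2%, Tbx21 in 35.4% and Gzmm in 31.3%. In the 79 cells with 2 or 3 Ccl5 UMIs these shares were 38.0%, 67.1%, 17.7%, 15.2%, 6.33% and 2.53%. In the 342 cells under the cut they were 41.2%, 56.1%, 16.4%, 21.1%, 8.19% and 3.22%. The cells with 2 or 3 molecules thus had shares nearer to those under the cut than to those with 4 or more. Igfbp4 ran the other way, with 10.7% in cells of 4 or more Ccl5 UMIs, 44.3% at 2 or 3 and 53.1% in Ccl5-negative cells. Median depth was 6778 UMIs at 4 or more, 4919 at 2 or 3, 5701 under the cut and 2221 in the 24 cells with 1 Ccl5 UMI, so depth moved with these shares. The levels per 10000 UMIs had the same order for Il2rb, the 24 cells left out. They were 3.03, 1.13, 1.20 and 0.683 in cells of 4 or more, 2 or 3, under the cut and none. In the 24 cells Il2rb was at 1.63. There Cxcr3 was at 2.17 against 1.35 in cells of 4 or more, and Ly6c2 at 3.62 against 14.0. The shares and levels by Ccl5 class are descriptions over pooled cells, with no test. The classes were uneven by channel. In channel 1, cells with 4 or more Ccl5 UMIs were 26 of 46, 24 of 42, 33 of 50 and 31 of 44 Ccl5-positive cells. In channel 2 they were 40 of 46, 43 of 52, 37 of 46 and 57 of 68 (in each channel dLN of WT and KO, then ndLN). The part of the channel and of free Ccl5 RNA in these shares was not tested.

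**Figure D4:**
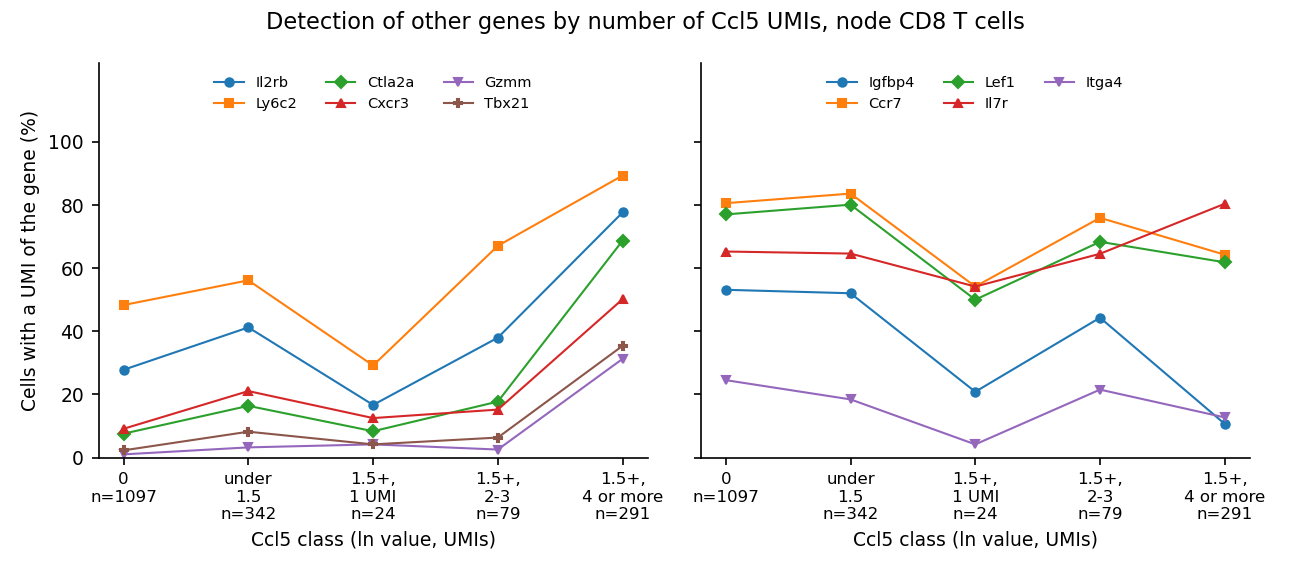
Share of node CD8 T cells with a UMI of each gene (%) by Ccl5 class, from no Ccl5 to 4 or more UMIs; n is the number of cells, pooled over 8 samples. Il2rb rises from 27.8% without Ccl5 to 77.7% with 4 or more UMIs and Igfbp4 falls from 53.1% to 10.7%, while the 24 shallow cells with 1 UMI dip for most genes.

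No gene passed the threshold between KO and WT in these cells. Of 7027 genes, 0 differed between KO and WT in dLN (0%) and 0 in ndLN (0%), at an adjusted p under 0.05 by limma with 2 mice against 2. Unadjusted, 306 and 299 genes had a p under 0.05. A limma-voom fit on summed UMIs called 0 and 1. In simulated data with known changes, the fit recovered 21% of genes changed 2-fold in dLN and 23% in ndLN. At 4-fold it recovered 71% and 67%. Many 2-fold changes could thus have been missed, and 0 calls do not show that no gene differed. The test of whether the genotype difference itself differed between nodes called 0 genes (0%), with 271 at an unadjusted p under 0.05 and 0 by limma-voom. That test did not pair the nodes of a mouse. With the mouse as a term, an alternative chosen after seeing the data, it again called 0 genes, with 300 at an unadjusted p under 0.05. With a mouse left out, dLN gave 1 gene without KO1 and 1 without KO2, and ndLN gave 3 without WT1, 2 without KO1 and 3 without KO2. The difference between nodes then gave 1 gene each without WT1, KO1 or KO2. DC markers in these cells summed to 3.22 to 15.8 UMIs per 10000 in the 4 WT and 2.30 to 5.66 in the 4 KO node samples. Without cells of 3 or more DC marker UMIs, 0 of 6674 genes passed in dLN and 0 in ndLN. Unadjusted, 265 and 388 genes then had a p under 0.05. The part of DC markers was not tested further.

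The values nearest to the threshold in dLN were those of a heat shock gene and an immediate early gene. Hspa1a, a chaperone with the near-identical copy Hspa1b, was at 0.46 and 0.57 in WT1 and WT2 and at 1.17 and 1.09 in KO1 and KO2 (mean log2(1 + UMIs per 10000)), a difference of 0.61 ± 0.14 (adjusted p = 0.25). Jun was at 0.37 and 0.48 in WT and 0.89 and 0.92 in KO (0.48 ± 0.11, adjusted p = 0.25). For both genes the KO values lay above the WT values in dLN. In ndLN Hspa1a was at 0.34 and 0.93 in WT and 0.56 and 0.77 in KO, and Jun at 0.52 and 0.53 and at 0.52 and 0.46, so neither kept that order. Of the 12 stress and immediate early genes, 10 lay above 0 in dLN (median 0.14) and 5 in ndLN (median -0.01). Other lists were as one-sided in dLN. There 0 of 10 proliferation genes (median -0.09) and 1 of 11 cytotoxic genes (median -0.09) lay above 0. The median over all genes in dLN was -0.01, and 0 genes of these lists passed.

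In ndLN the smallest p values belonged to 5830405F06Rik (-0.42 ± 0.10) and to the interferon-induced Ifi27l2a, which was at 1.38 and 2.16 in WT1 and WT2 and at 0.65 and 1.23 in KO1 and KO2 (-0.83 ± 0.20, adjusted p = 0.52 for both). In dLN Ifi27l2a was at 1.41 and 1.32 in WT and 1.87 and 1.5 in KO, the opposite order, and its KO minus WT difference was 1.15 ± 0.28 larger in dLN than in ndLN (adjusted p = 0.99). All 12 interferon genes lay below 0 for KO minus WT in ndLN (median -0.19) and 8 of 12 above 0 in dLN (median 0.05), with 0 past the threshold in either, against medians of 0.00 and -0.01 over all genes. Of the 18 genes followed whatever their test, 16 were tested and 0 passed in either node. Il2rb in ndLN was at 1.04 and 1.30 in WT and 1.43 and 1.80 in KO (0.44 ± 0.17, adjusted p = 1.00). In dLN it was at 1.29 and 1.40 in WT and 1.10 and 1.60 in KO. Nkg7 differed by -0.41 ± 0.19 in dLN (adjusted p = 0.99) and 0.09 ± 0.19 in ndLN.

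Between the nodes no gene passed the threshold either. Of 7027 genes, 0 differed between dLN and ndLN (0%) in a limma fit with the mouse as a term, with 364 at an unadjusted p under 0.05 and 3 called by limma-voom. Without WT1 there were 4 genes and without KO1 2. In simulated data made in the same way, with an assumed spread, this fit recovered 44% of genes changed 2-fold and 96% of those changed 4-fold. Real recovery can again be lower. The smallest p belonged to Dusp1, a phosphatase induced by stress and activation, at 0.82, 0.90, 1.04 and 0.86 in dLN of WT1, WT2, KO1 and KO2 and at 1.01, 1.79, 1.16 and 1.52 in ndLN (-0.46 ± 0.11, adjusted p = 0.24). It was lower in dLN in 4 of 4 mice. Dnajc7 (-0.29) had the same direction in all 4, and the ribosomal protein genes Rplp0 (0.16) and Rps24 (0.11) were higher in dLN in 4 of 4, each with an adjusted p of 0.65. Gzmm was at 0.53, 0.91, 0.42 and 0.63 in dLN and 0.31, 0.59, 0.25 and 0.37 in ndLN, higher in dLN in 4 of 4 mice (0.24 ± 0.07, adjusted p = 0.81). Cd44 was lower in dLN in 3 of 4 mice (-0.20 ± 0.07, adjusted p = 0.92). Of the 12 stress and immediate early genes 3 lay above 0 (median -0.12) and of the 12 interferon genes 11 (median 0.07), against a median of 0.00 over all genes.

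The same gate applied to the tumours of these mice found 147 cells, of which WT1 had 49, WT2 4, KO1 77 and KO2 17. They made up 65.3%, 36.4%, 77.0% and 77.3% of gated CD8 T cells there. WT2 was left out of the test for its cell number. Node cells carried more RNA of naive and quiescence genes and far less of most cytotoxic and exhaustion genes than the tumour cells of the same 3 mice. Of 7716 genes, 381 were higher (4.94%) and 2081 lower (27%) in the node cells by limma with 3 mice. Tumour cells were deeper, with a median of 8157 UMIs. Without KO1 the counts were 248 and 1329. With every cell thinned to 1500 UMIs they were 190 and 451, so 29.6% of calls were higher in place of 15.5%. The median difference over all genes was -0.06, and -0.29 by limma-voom and -0.20 with the smaller pseudocount, so small negative differences depend on scaling.

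Of 15 naive and quiescence genes tested 13 were higher in node cells and 0 lower, with a median of 0.68. Ccr7 was at 3.98, 4.06 and 2.80 UMIs per 10000 in node cells of WT1, KO1 and KO2 and at 0.529, 0.881 and 0.357 in tumour (1.28 ± 0.10 log2, adjusted p = 1.3e-14). Klf2 (1.89), Tcf7 (1.24) and Lef1 (1.07) were likewise higher. Ccr7, although lower than in Ccl5-negative node cells, thus separated node from tumour in these 3 mice without overlap. The 4 tumour cells of WT2 held 2.92 Ccr7 UMIs per 10000 against 2.59 in its node cells, the opposite order.

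Of 11 cytotoxic genes tested 9 were lower in node cells and 1 higher, and of 11 checkpoint and exhaustion genes 10 were lower. A gene was tested if 5% of node and tumour cells pooled held it. Genes rare in the node cells, Pdcd1 among them, thus entered through the tumour cells. Counts and medians of lists in this comparison can therefore lean towards lower values. Gzmb, granzyme B, was at 0.0783, 0.143 and 1.62 UMIs per 10000 in node cells and at 23.9, 22.9 and 9.27 in tumour (-2.62 ± 0.15 log2, adjusted p = 7.4e-18). Pdcd1 was at 0.0651, 0.115 and 0.202 against 7.12, 9.16 and 4.51 (-2.25 ± 0.12 log2, adjusted p = 1.6e-19). Lag3 (-2.44), Tnfrsf9 (-2.37) and the residency receptor Cxcr6 (-2.33) were lower too. The 1 cytotoxic gene that was higher was Gzmm, at 0.781, 0.582 and 0.903 against 0.0595, 0 and 0.0485 (0.38 ± 0.06 log2, adjusted p = 5.0e-06).

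Within the memory list 9 of 15 genes were lower in node cells, led by Ly6a (-3.20 ± 0.14 log2), the gene of Sca-1, which was at 0.837, 1.92 and 1.66 against 15.8, 26.5 and 19.4 UMIs per 10000. Il2rb was also lower (-1.26 ± 0.14 log2), at 1.99, 2.36 and 3.36 against 7.64, 8.80 and 5.33. Tbx21 was lower by 0.51, but by 0.16 after thinning, which ended its call (adjusted p = 0.38), while Eomes (0.20, adjusted p = 0.063), Cxcr3 (0.13, adjusted p = 0.26) and Ly6c2 (0.27, adjusted p = 0.14) did not pass. Markers of other cells moved with the tissue: 8 of 8 monocyte and macrophage genes and 5 of 6 DC genes were lower in node cells, Lyz2 being at 0.202, 0.864 and 0.133 against 9.54, 11.5 and 12.8 UMIs per 10000. Their part in the differences was not tested.

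**Figure D5:**
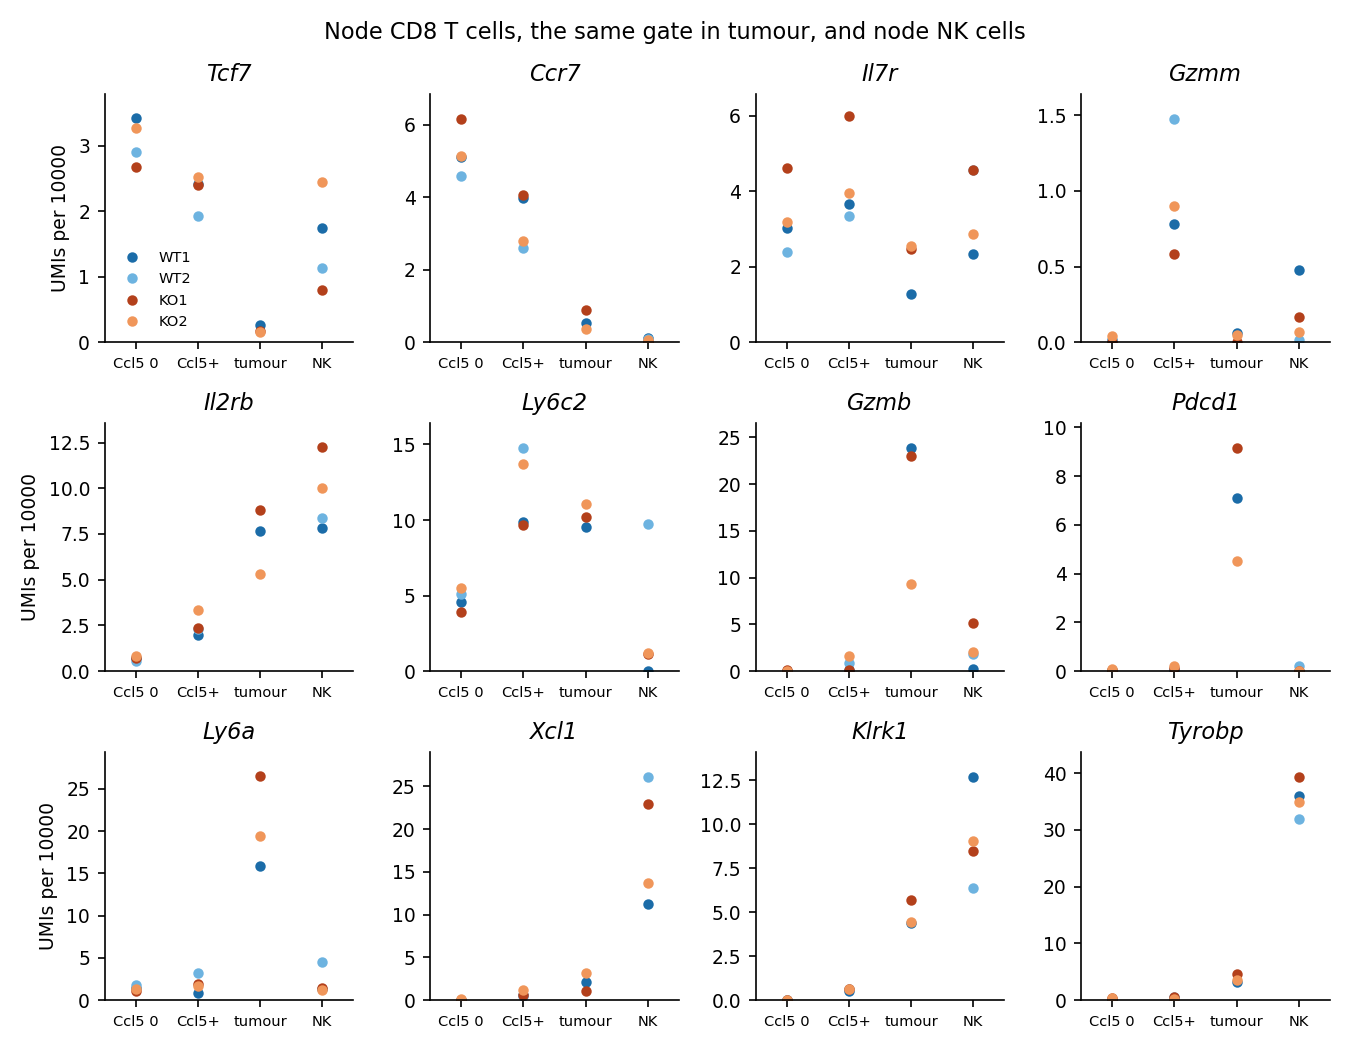
Level of 12 genes (UMIs per 10000, linear axes from 0) in Ccl5-negative and Ccl5-positive node CD8 T cells, in the same Ccl5 gate in tumour (WT2 not drawn, 4 cells) and in node NK cells; each point is a mouse. Tcf7 and Ccr7 are higher in node T cells than in tumour, Gzmb, Pdcd1 and Ly6a are high in tumour, and Xcl1, Klrk1 and Tyrobp are highest in NK cells.

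Node NK cells, gated by Ncr1 and Nkg7 without T or B cell genes, share much of the cytotoxic programme and were set beside the Ccl5-positive T cells. There were 76, from 12 in WT1 to 35 in WT2, with a median of 5401.5 UMIs. Of 7172 genes, 234 were higher (3.26%) and 581 lower (8.1%) in the T cells by limma with 4 mice. The gate genes were left out. Without WT2 the counts were 179 and 296, and without KO2 156 and 366. Limma-voom called 215 and 1077, so 16.6% of calls were higher in place of 28.7%, with a median over all genes of -0.44 in place of -0.05, and thinning gave 121 and 165 (42.3% higher).

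The T cells lacked the NK signalling chains. Tyrobp was at 0.356, 0.491, 0.588 and 0.175 UMIs per 10000 in Ccl5-positive T cells and at 35.9, 32.0, 39.4 and 34.9 in NK cells (-4.79 ± 0.18 log2, adjusted p = 3.8e-45). The activating receptor Klrk1 (-2.72), Xcl1 (-2.90) and Gzma (-2.19) were lower, and 7 of 8 killer lectin-like receptors and 12 of 12 S100 and annexin genes. Genes rare in the T cells could pass the detection limit through the NK cells, so these counts can lean towards lower values. Il2rb, so marked against Ccl5-negative T cells, was lower than in NK cells (-1.78 ± 0.18 log2), which held 7.80, 8.37, 12.2 and 10.0 UMIs per 10000. Tbx21 (-0.84) and Eomes (-0.61) were lower as well. In the order of mean levels, Il2rb and Tbx21 thus rose from Ccl5-negative to Ccl5-positive T cells to NK cells, with no overlap between neighbours. The gates required Cd3e and Cd8b1 in the T cells and excluded both in NK cells. Higher Cd3d (3.15), Cd3g (2.72) and Cd8a (2.06) in the T cells was thus nearly fixed in advance. Also higher there were Ly6c2 (2.32), Ccr7 (1.42) and, with a small difference, Gzmm (0.35 ± 0.10 log2, adjusted p = 0.0089). The Gzmm call was lost under 4 of 9 other settings (no detection filter, thinning, without WT2 and without KO2), among them a difference of 0.15 with an adjusted p of 0.43 after thinning. Ly6c2 was uneven among NK cells, at 0, 9.76, 1.12 and 1.17 UMIs per 10000. Cxcr3 (-0.18, adjusted p = 0.37) did not pass.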

How the data were processed

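The authors deposited natural log values, ln(1 + 10000 × UMIs / UMIs of the cell), for 12638 genes and 12458 cells, with the tissue and mouse of each cell. The submitters' processing notes name Cell Ranger 3.0.2 and mm10. No source used here gives the tag assignment, filters or doublet treatment. UMIs were recovered from the values (100% whole within 0.01). Node samples held 3031124 to 8757836 UMIs.

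Cells were gated on deposited values and averaged per mouse and node as log2(1 + UMIs per 10000), with a pseudocount of 1 and at least 10 cells. Genes with a UMI in 5% of the compared cells were tested with limma 3.58.1 (trend, two-sided, Benjamini-Hochberg at 0.05) in R 4.3.3. The comparison of Ccl5-positive and Ccl5-negative cells, of nodes, and with tumour or NK cells had the mouse as a term. Groups compared share cells or mice: the Ccl5-positive node cells enter every comparison. Shares were tested by exact permutation. The scripts were tested on simulated data. Limma p values and SE rest on the spread between mice, 2 per genotype, moderated with that of other genes. They do not measure the spread of the mice for that gene alone. The main genotype fits took the 2 nodes of a mouse as separate samples with 1 shared spread.

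Named genes were, per comparison, genes past the threshold with 1 direction in every mouse and a mean above the median of genes (12 per direction by size), list members past the threshold (4 per list and direction), and 18 followed genes; some genes are not reported here. Other list members named in the text were picked with their values in view. The members and lists were chosen with earlier results of these data known. Alternatives were limma-voom, no detection filter, a pseudocount of 0.1, thinning to 1500 UMIs, other gates, single nodes, a replicate block and leaving out each mouse. The mouse number is the droplet channel, by the labels; the deviations of same-numbered mice correlated at 0.07 in dLN and 0.14 in ndLN.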

Additional observations from a re-analysis of the deposited data

Results flagged for a closer look

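In 4 of 150 groups of 4 mouse values, 1 mouse lay apart from the other 3 by more than a gap test (Dixon) allows at 95%; chance alone flags about 1 group in 20. For Ccl5-positive minus Ccl5-negative cells, WT2 stood apart for Vim (1.15 against 0.27 to 0.41 log2) and Hmgb2 (0.61 against 0.32 to 0.35), both in the direction of the other mice. For Inpp4b, a lipid phosphatase, WT1 had -0.36 against -0.43 in each other mouse. For Tbx21 in dLN minus ndLN, KO1 had 0.14 log2 where the others lay between -0.03 and 0.00.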

How the results depend on the processing

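For Ccl5-positive against Ccl5-negative cells the 335 calls became 119 without a detection filter, 76 after thinning (2903 genes tested), 183 in dLN only, 168 in ndLN only and 689 at 4 or more Ccl5 UMIs, and 141 to 350 with a mouse left out; 33 of 54 named genes kept their call under every alternative run. For KO against WT, dLN gave 1 gene with Ccl5 above 0 and 0 to 1 with a mouse left out, ndLN gave 1 by limma-voom and 0 to 3, and their difference 0 to 1. With the channel as a replicate block all 3 gave 0 genes, and the block changed no call. For dLN against ndLN there were 3 genes by limma-voom, 1 with the pseudocount of 0.1, 1 with Ccl5 above 0, 3 without cells of 3 or more DC marker UMIs, 1 at 4 or more Ccl5 UMIs and 0 to 4 with a mouse left out. Against tumour, 2462 calls became 641 after thinning and 1577 to 2682 with a mouse left out. Against NK cells, 815 became 1292 by limma-voom, 251 without a filter, 286 after thinning and 475 to 738 with a mouse left out. The share difference between nodes reversed to 0.317 points after thinning and lay between -6.26 and -3.79 with a mouse left out; that of KO and WT lay between 4.00 and 7.49. Cst3 against NK cells reversed to 0.48 by limma-voom (adjusted p = 0.21). Thinning and a missing filter change how many genes are tested; otherwise the cause was not tested.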

Other observations

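The tumour of WT2 entered no test, since it held 4 cells of the Ccl5 gate. These 4 cells had 10.2 Gzmb, 3.55 Pdcd1, 3.27 Il2rb and 21.1 Ly6a UMIs per 10000, against 0.846, 0.0410, 2.31 and 3.23 in the Ccl5-positive node cells of the same mouse. Gzmb, Pdcd1 and Ly6a were higher in this tumour, as in the others. Ccr7 was also higher (2.92 against 2.59), and Gzma, Prf1 and Ccl4 were at 0 against 3.03, 0.311 and 1.01 in node cells, both unlike the other tumours. These values come from 4 cells and carry no test.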
